A study of Mus musculus with 15 samples.

Results

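Neuropeptide genes of inhibitory neurons and of the striatum were followed in whole-brain RNA of young and old mice on 2 feeding regimens. The 10 genes Sst, Vip, Cck, Tac1, Tac2, Penk, Pdyn, Cort, Nts and Adcyap1 were chosen by name out of 43629 genes listed, and each was found once by its Ensembl identifier. All mice were male wildtype C57BL/6J, an inbred strain, and each gave 1 library. The groups were 4 young/AL mice (3 months, food ad libitum), 3 young/EOD mice (3 months, fed every other day), 4 old/AL mice (24 months) and 4 old/EOD mice (24 months). The regimen that the labels call intermittent fasting (IF) is named EOD here, and it was begun in early adulthood, so that old/EOD mice had been on it for most of their life and young/EOD mice only briefly. The labels give 24 months for the old mice, whereas the methods of the study give 21 months as their age when its analyses began.

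Neuropeptides are made as long precursors, cut by prohormone convertases in secretory granules, and released to act on G-protein-coupled receptors. In the forebrain, Sst, Vip, Cck, Tac2 and Cort mark sets of GABAergic interneurons. In the striatum, Penk is made by projection neurons of the indirect pathway, and Tac1 and Pdyn by those of the direct pathway. Whole-brain RNA holds all these sources together. A lower level can therefore come from fewer cells or from less RNA per cell, and these cannot be told apart here.

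The counts on genes ranged from 5198748 to 13610729 per mouse (median 9886766). Young/AL replicate 3 stood apart, with a count in 17280 genes against 19054 to 20880 in the other 14 mice. Its median correlation with the other mice, across genes, was 0.9573 against 0.9801 to 0.9873, so results that rest on it are given with and without it. The tissue was checked against marker genes. Pan-neuronal, astrocyte and oligodendrocyte markers were detected in every mouse. Of 6 cerebellar markers, the granule-cell gene Gabra6 had 0 counts in 8 mice and at most 70 counts in any mouse in spite of the whole-brain label, Cbln3 had 0 to 149 counts and the Purkinje-cell gene Pcp2 had 22 to 63. The other 3, which other brain regions also express, were detected in every mouse (Car8 with 80 to 302 counts, Cbln1 with 110 to 337 and Zic1 with 293 to 749). Gabra6 and Cbln3 were highest in old/AL replicate 3. Old/AL replicate 4 held 1050 CPM (the count scaled to library size) over 8 summed pituitary genes, against 0.719 to 18.2 CPM in the other 14 mice. Its values below are given as measured.

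The promoters of these genes are shown first, because Sst, Vip and Penk are textbook targets of CREB, a transcription factor activated by cAMP, and 7 of the 9 genes for which RefSeq gave a promoter hold the core of its motif. Windows from 250 bases before to 50 bases after each annotated start were searched for TGACG on both strands, and for the full palindrome TGACGTCA, which contains it. The core was in 77.8% of the 9 and in 23.0% of 27025 genes, and the full site was in Sst alone of the 9 and in 2.03% of all genes. Tac2 and Pdyn held neither, and Penk was not searched. A match is a description of letters, not a binding site. The following 30-base stretches are from RefSeq on GRCm38.p6, 5′ to 3′ on the gene's own strand, with the site in capitals (CGTCA is TGACG read on the other strand).
Sst, chr16:23890874-23890903, minus strand: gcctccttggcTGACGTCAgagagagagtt
Vip, chr10:5639126-5639155, plus strand: gggatcactactgTGACGtctttcggggag
Cck, chr9:121495725-121495754, minus strand: tcctgctggactgCGTCAgcactgggtaaa
Tac1, chr6:7555005-7555034, plus strand: ggctctacaggctCGTCAcgcctgagataa
Cort, chr4:149126765-149126794, minus strand: gctccggcttgtgCGTCAccgcgtgagtgt
Nts, chr10:102490568-102490597, minus strand: aattagggaagatCGTCActttccatcaag
Adcyap1, chr17:93198913-93198942, plus strand: gggactaggatgcTGACGtcttttactgat
The Sst site began 48 bases before the start, the Cck site 47 and the Tac1 site 43. The Vip and Adcyap1 sites lay farther out, at 79 and 91 bases, and the Nts site lay at 166. The Cort site, at 18 bases, was the nearest to its start, and a second Tac1 match lay 197 bases out. RefSeq starts can differ from those of the deposited annotation, and the printed Tac1 stretch lies inside the Tac1 gene as that annotation gives it. For Adcyap1 another RefSeq start put the same site 242 bases out.

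On GRCm38, as the deposited annotation gives it, Sst lies at chr16:23889581-23890844, Vip at chr10:5639218-5647614, Cck at chr9:121489825-121495689, Tac1 at chr6:7554879-7565834 and Tac2 at chr10:127724478-127731767. Penk lies at chr4:4133531-4138819, Pdyn at chr2:129686565-129699844, Cort at chr4:149125034-149126763, Nts at chr10:102481760-102490418 and Adcyap1 at chr17:93199422-93205485. Reads over all annotated exons of a gene were counted.

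Compared per length (CPM per kilobase of annotated exon, mean ± SD over 15 mice), the genes fell into a high set, Vip alone, a lower set and Cort. Somatostatin (Sst), made by interneurons that inhibit the dendrites of principal neurons, stood at 132 ± 23.5, proenkephalin (Penk), the source of the enkephalins, at 129 ± 22.2, and cholecystokinin (Cck) at 127 ± 18.1. The lowest Cck value, 102, lay above the highest value of Vip, 38. Vasoactive intestinal peptide (Vip), made by interneurons that inhibit other interneurons, averaged 31.1 ± 4.85. The substance P precursor Tac1 averaged 19.0 ± 2.49, and its highest value, 23.5, was below the lowest of Vip, 25.3. Prodynorphin (Pdyn, 16.6 ± 2.64), neurotensin (Nts, 15 ± 3.11), PACAP (Adcyap1, 13.3 ± 1.45) and the neurokinin B precursor Tac2 (9.95 ± 3.45) followed. Among Sst, Penk and Cck, and from Tac1 through Tac2, neighbours in the order overlapped in their mice. Cortistatin (Cort), a somatostatin relative, averaged 2.52 ± 0.785, and its highest value, 3.87, lay below the lowest of Tac2, 4.90. Its raw counts were 5 to 28 per mouse, and those of Tac2 were 33 to 148, so the relative counting error was largest for these 2 genes.

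**Figure D1:**
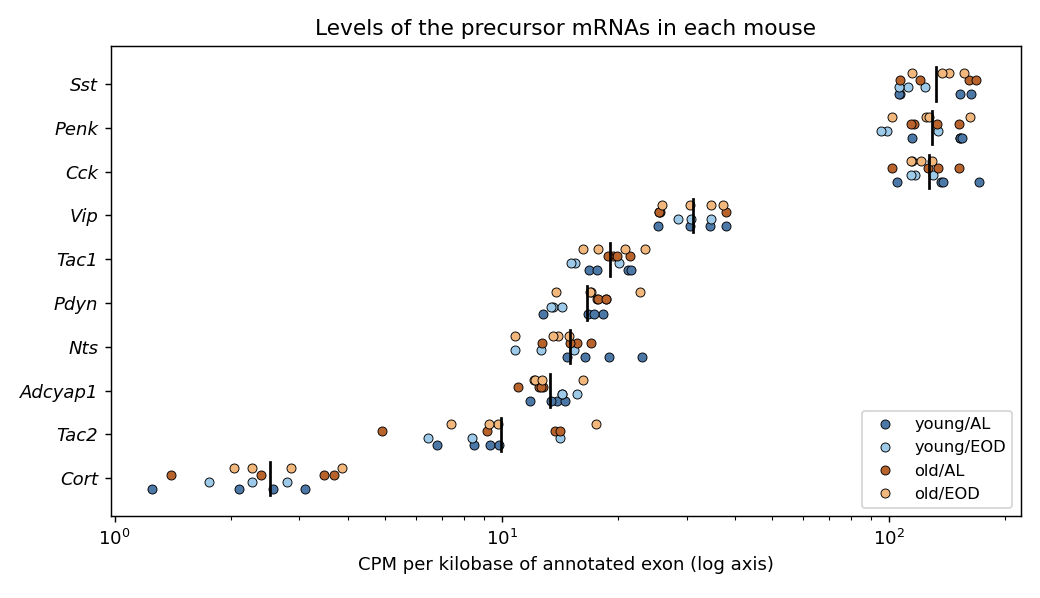
Level of each of the 10 genes per length (CPM per kilobase of exon, log axis), 1 point per mouse, by group. Sst, Penk and Cck lie at 95.2 or above in every mouse, Vip between 25.3 and 38, and Cort at 3.87 or below. The black bar is the mean of 15 mice.

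No difference with age or feeding passed the threshold for any of the 10 genes, from the most abundant (Penk, Sst and Cck) to the scarcest (Cort). An edgeR quasi-likelihood fit of all 15864 genes that passed the filter on low counts gave 7 comparisons, namely old against young (AL mice, EOD mice, both diets averaged), EOD against AL (young mice, old mice, both ages averaged) and the interaction of age with diet. At the study's threshold, an adjusted p (FDR) under 0.1, 0 of the 10 were called for age in AL mice (1.09% of all genes), 0 for age in EOD mice (0.29%), 0 for age averaged over diets (2.3%), and 0 for each diet comparison and the interaction (0% of all genes). DESeq2 also called 0 of the 10 in each comparison (1.36%, 0.426% and 2.65% of all genes for the 3 age comparisons, 0.00381% for EOD in young mice and 0% for the rest). Limma voom called 0 of the 10 (0.958%, 0.788% and 3.07% for age, 0.0126% for EOD in old mice and 0% for the rest), as did edgeR without young/AL replicate 3 (1.03%, 0.484% and 2.56% for age and 0% for the rest). The exception was an edgeR fit of every gene with at least 1 count, which called Pdyn for age averaged over diets (FDR 0.0493) and Penk for EOD in young mice (FDR 0.0169). That fit gave nearly no weight to a gene's own spread (prior degrees of freedom 2170, against 9.81 with the filter). At an unadjusted p under 0.05, edgeR gave 0 of 10 for age in AL mice (9.52% of all genes), 1 for age in EOD mice (5.74%) and 1 for age averaged over diets (11.7%). For EOD against AL it gave 2 of 10 among the young (4.14%), 0 among the old (2.58%), 1 over both ages (4.51%) and 0 for the interaction (2.28%). The genes under 0.05 were Pdyn for age, Penk and Nts for EOD among the young, and Nts over both ages. No gene of the 10 had groups that did not overlap in any of the 4 pairwise comparisons, where 4.56% (age, AL), 9.04% (age, EOD), 4.45% (diet, young) and 2.59% (diet, old) of all genes had.

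The intervals say how large a change the data still allow. For the 8 genes other than Tac2 and Cort, the 95% intervals of the fold lay between 0.66 and 1.32 for age in AL mice, 0.766 and 1.56 for age in EOD mice, 0.559 and 1.30 for EOD in young mice, and 0.713 and 1.37 for EOD in old mice. A 1.5-fold change in either direction lay outside the interval of 7 of the 10 genes for age in AL mice, 6 for age in EOD mice, 6 for EOD in young mice and 8 for EOD in old mice. For Cort and for Tac2 a 1.5-fold increase lay inside the interval in each of the 4. A 1.5-fold decrease lay outside the Tac2 interval in each of the 4. For Cort a decrease of that size lay outside for both age comparisons. It lay inside for EOD in young mice (interval from 0.547) and in old mice (from 0.58). Folds inside these intervals are not excluded by these data, with 3 or 4 mice a group.

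**Figure D2:**
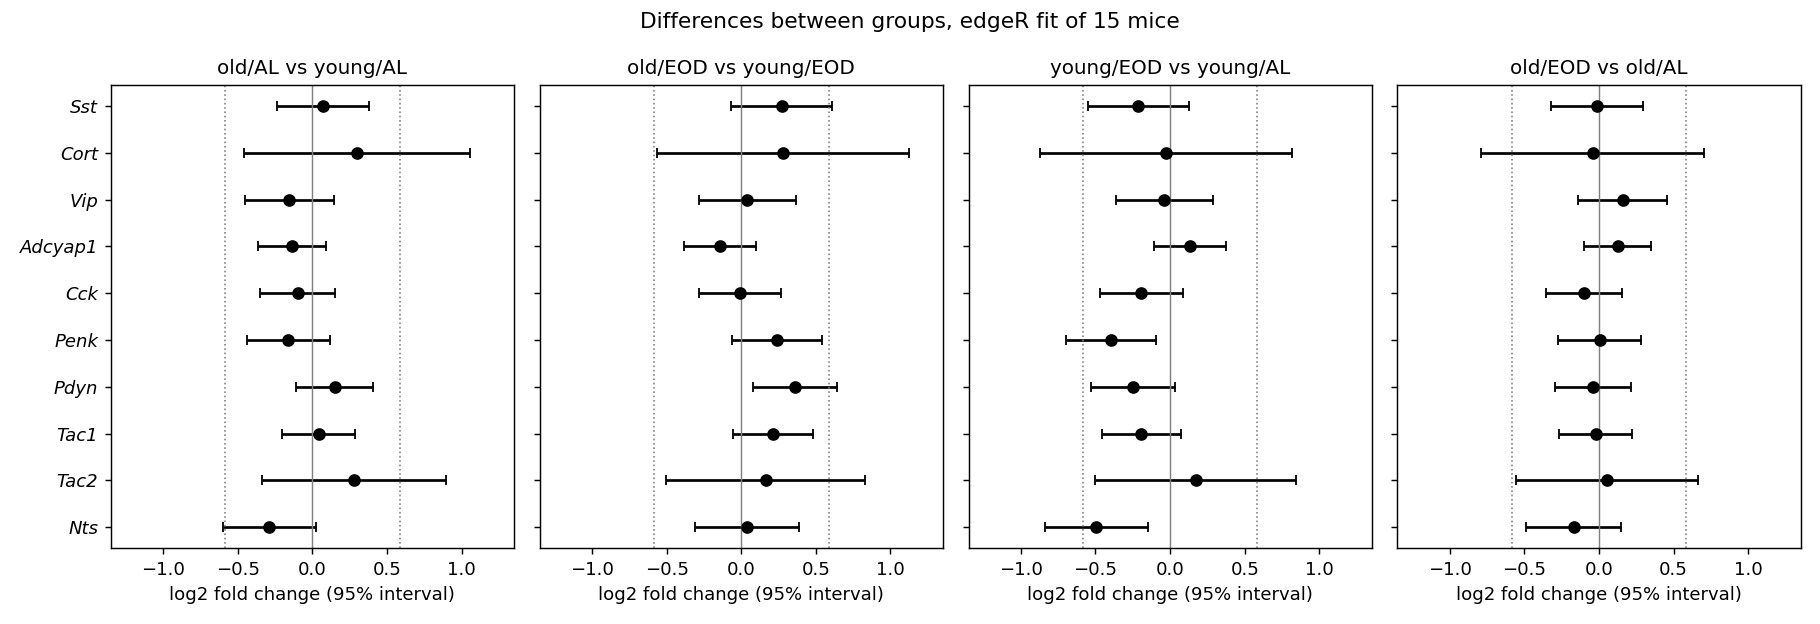
Log2 fold change of each of the 10 genes with its 95% interval (edgeR, 15 mice) for the 4 pairwise comparisons, where the dotted lines mark a 1.5-fold change. Intervals of Tac2 and Cort are the widest, and the Penk and Nts intervals for EOD in young mice lie below 0.

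Pdyn came closest to a change with age. Its level in young/AL mice was 36.9, 48.3, 53.0 and 49.9 CPM, and in old/AL mice 50.7, 53.7, 51.1 and 53.6 CPM. In young/EOD mice it was 39.2, 41.3 and 38.6 CPM, and in old/EOD mice 65.5, 49.2, 48.8 and 39.9 CPM. The 3 young/EOD mice were low and close together, and the lowest old/EOD mouse lay within their range, so that the groups overlapped. The log2 difference of old minus young, averaged over diets, was 0.26 (SE 0.0917, edgeR FDR 0.226), and without young/AL replicate 3 it was 0.29 (FDR 0.14). Within EOD mice it was 0.36 (SE 0.136, edgeR FDR 0.726), a fold of 1.28 with a 95% interval of 1.06 to 1.56, and leaving out single mice gave 0.21 without old/EOD replicate 1 to 0.46 without old/EOD replicate 4. The file headers name 3 sequencing lanes, of which the third held no young/EOD mouse, and within the other 2 the log2 difference was 0.737 (old/EOD replicate 1, the highest mouse, against 1 young/EOD mouse) and 0.299 (1 against 2). Microglial genes were higher in old mice (summed level of 5 genes, each detected in every mouse, 195 to 208 CPM in young/AL, 193 to 199 CPM in young/EOD, 218 to 232 CPM in old/AL and 210 to 242 CPM in old/EOD), and their part in the Pdyn values was not tested.

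Penk and Nts had their lowest group means in young/EOD mice, and neither passed the threshold. Penk was measured at 187.2, 249.3, 250.6 and 252.3 CPM in young/AL mice and at 161.1, 155.6 and 218.7 CPM in young/EOD mice. In old/AL mice it was at 190.1, 218.0, 248.6 and 186.8 CPM, and in old/EOD mice at 265.3, 203.8, 207.8 and 166.5 CPM. A pair of young/EOD mice lay below every young/AL mouse while the other overlapped, and the old groups overlapped throughout. The log2 difference of EOD minus AL in young mice was -0.40 (SE 0.145, edgeR FDR 0.996), a fold of 0.76 with a 95% interval of 0.616 to 0.936. In old mice it was 0.0043 (95% interval of the fold 0.828 to 1.21), and the interaction did not pass the test (log2 difference 0.40, SE 0.196, unadjusted p = 0.0536 in edgeR). Within the 2 lanes that held young/EOD mice, the young difference was -0.423 (1 young/EOD against 2 young/AL mice) and -0.442 (2 against 1). The 1 young/AL mouse of the second lane was replicate 3, which stood apart. Without it the fit of the other mice gave a young difference of -0.36 (SE 0.153). On the opposite strand A830012C17Rik overlaps Penk exons, with 761 counts over all mice, and counting used strand.

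Nts, which encodes neurotensin, a peptide that modulates dopamine neurons, was at 17.2, 22.3, 19.3 and 27.0 CPM in young/AL mice. It was at 14.8, 12.7 and 18.1 CPM in young/EOD mice, 20.02, 18.4, 17.6 and 14.9 CPM in old/AL mice, and 16.5, 17.5, 16.0 and 12.7 CPM in old/EOD mice. A pair of young/EOD mice lay below the lowest young/AL mouse, and the highest lay above it. The log2 difference of EOD minus AL in young mice was -0.49 (SE 0.165, edgeR FDR 0.996), a fold of 0.71 with a 95% interval of 0.559 to 0.901. In old mice it was -0.17 (95% interval of the fold 0.713 to 1.11), and averaged over ages it was -0.33 (SE 0.112, FDR 0.983). The interaction had a log2 difference of 0.32 (SE 0.225, unadjusted p = 0.165 in edgeR). Group means were close in the 2 EOD groups, 15.2 CPM in young/EOD and 15.7 CPM in old/EOD mice. Within those 2 lanes, with the same mice, the young difference was -0.401 and -0.344, the second again against young/AL replicate 3 alone. Without that mouse the fit gave a young difference of -0.54 (SE 0.169). With age in AL mice the log2 difference was -0.29 (SE 0.15, FDR 0.557, edgeR), and leaving out single mice gave -0.15 without young/AL replicate 4 to -0.36 without young/AL replicate 1. Without young/AL replicate 3 it was -0.34 (FDR 0.647), and Nts was then the 1 gene of the 10 under an unadjusted 0.05, as were 7.25% of all genes.

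Markers of other brain regions were read beside these low values. The summed level of 5 thalamic genes, all detected in every mouse, was 375 to 483 CPM in young/AL mice and 480 to 581 CPM in young/EOD mice, against 391 to 507 CPM in old/AL and 392 to 500 CPM in old/EOD mice. The young/EOD group had the highest median and overlapped the young/AL and both old groups. As deviations from group means, the thalamic score (mean log2 CPM) had r = -0.164 with Penk and -0.219 with Nts over 15 mice. Neither passed (adjusted exact permutation p = 0.95 and 0.865). The part of the thalamic level in the differences of Penk and Nts between groups was not tested. Median sums in young/AL and young/EOD mice were 3250 and 3200 CPM for cortical and hippocampal excitatory markers and 102 and 97.8 CPM for cerebellar markers. They were 58.8 and 68.3 CPM for hypothalamic and 783 and 514 CPM for choroid plexus markers. In the cerebellar sum, Zic1, which other brain regions also express, averaged 59.5 and 68 CPM in the same groups, and Pcp2 4.55 and 3.82 CPM. That sum is therefore no specific measure of cerebellum. The ranges of young/AL and young/EOD mice overlapped in each of these lists.

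The interneuron peptides overlapped in each of the 4 pairwise comparisons. Sst was at 64.0, 91.5, 63.4 and 97.6 CPM in young/AL mice, and at 66.8, 63.4 and 74.5 CPM in young/EOD mice. It was at 64.3, 71.6, 96.7 and 100.5 CPM in old/AL mice and 85.4, 93.2, 82.3 and 69.2 CPM in old/EOD mice. Every group reached below 70 CPM, and only the young/EOD group stayed below 75 CPM. Group means of Vip were 49.0 ± 8.33 CPM (SD, n = 4) in young/AL, 48.0 ± 4.66 (n = 3) in young/EOD, 43.7 ± 9.46 (n = 4) in old/AL and 49.1 ± 7.51 (n = 4) in old/EOD mice. Cck, which is also made by excitatory cortical neurons, averaged 94.0 ± 18.7 CPM in young/AL, 82.5 ± 5.95 in young/EOD, 87.9 ± 14.2 in old/AL and 82.1 ± 4.74 in old/EOD mice. Tac2 ranged from 4.33 to 15.5 CPM and Cort from 0.844 to 2.62 CPM over all mice, with no pair of compared groups apart.

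Tac1 and Adcyap1 completed the set. Tac1 was at 57.2, 72.0, 59.8 and 73.3 CPM in young/AL mice and at 52.6, 51.4 and 68.3 CPM in young/EOD mice. It was at 66.0, 73.2, 67.3 and 64.0 CPM in old/AL mice and at 79.9, 60.1, 70.7 and 55.1 CPM in old/EOD mice. As with Penk, a pair of young/EOD mice lay below every young/AL mouse, while the log2 difference of -0.19 (SE 0.128) had a 95% interval of fold from 0.728 to 1.05. Adcyap1 encodes PACAP, a peptide that raises cAMP. It averaged 28.0 ± 2.44 CPM (SD, n = 4) in young/AL, 30.7 ± 1.52 (n = 3) in young/EOD, 25.5 ± 1.76 (n = 4) in old/AL and 27.8 ± 4.07 (n = 4) in old/EOD mice.

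**Figure D3:**
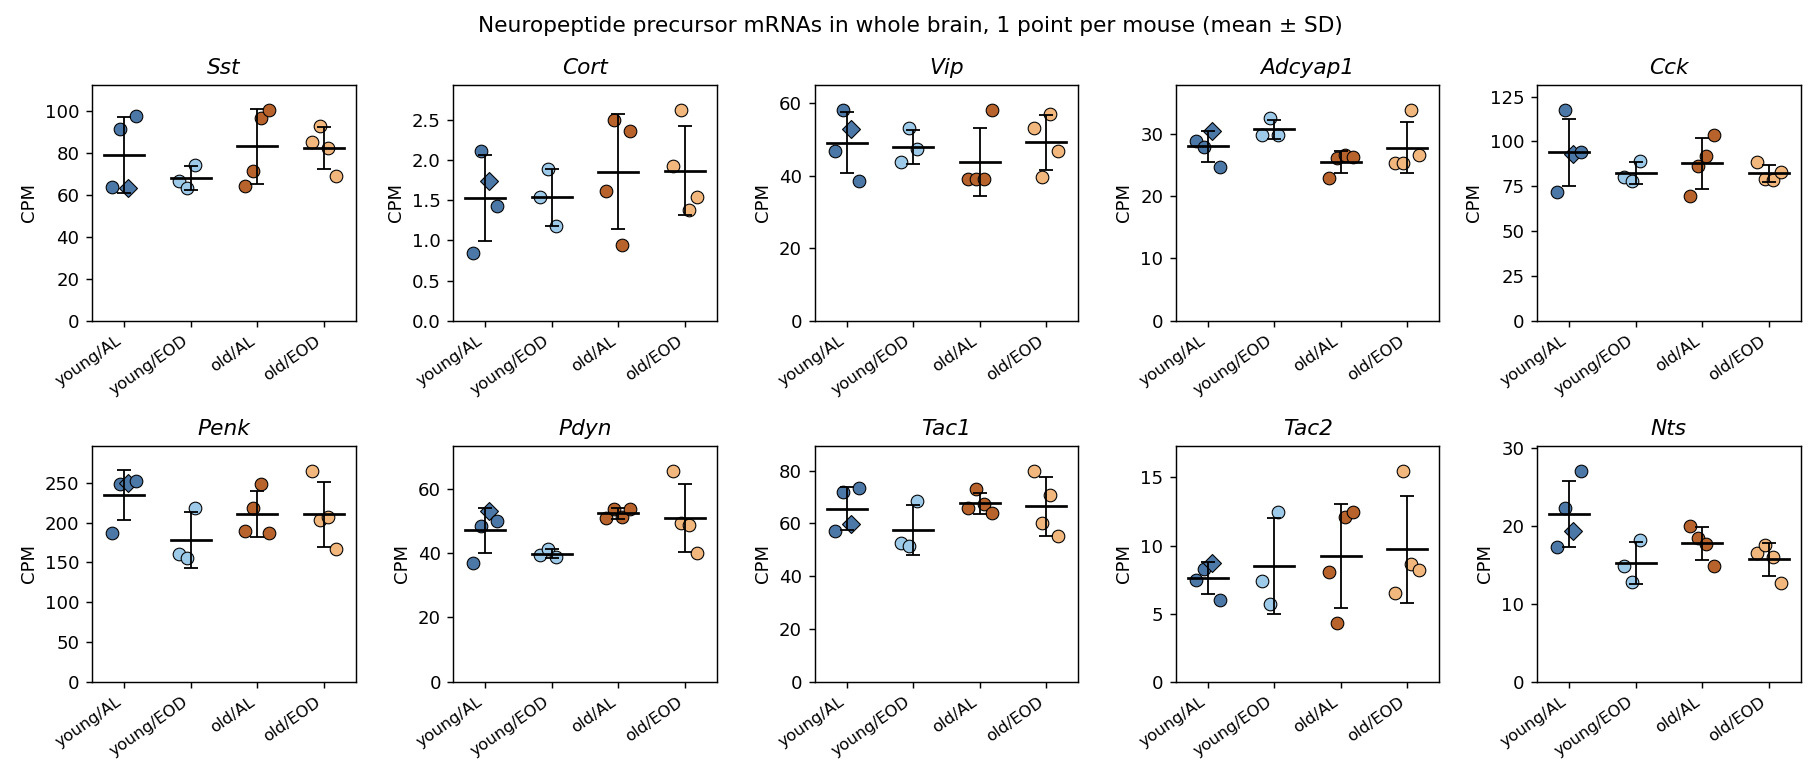
CPM of each of the 10 genes in every mouse (1 point per mouse, with the group mean ± SD), each panel with its own axis from 0, where the diamond is young/AL replicate 3. In each of the 4 pairwise comparisons the groups overlap for all 10 genes.

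The spread among mice was itself larger than usual for several of these genes. The biological coefficient of variation (BCV) of a gene, set against the value that edgeR's trend gives at its level, was above 1 for 8 of the 10, and for 35.8% of all 15864 genes. Tac2 had a BCV of 0.273 against 0.166 on the trend, a ratio of 1.65, at the 98th percentile of all genes. Penk (ratio 1.52, percentile 96.5) and Sst (1.51, percentile 96.2) were next, while Adcyap1 (0.845) and Cort (0.815) lay below 1. Without young/AL replicate 3 the ratio was above 1 for 8 of the 10 and for 34.7% of all genes.

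Whether genes varied together from mouse to mouse was examined within groups. Over 125 relations (45 pairs of the 10 genes and 80 of a gene with the score of a gene list), none passed a Benjamini-Hochberg adjusted p of 0.05 over 15 mice with Pearson's r or Spearman's rho. Of the 45 pairs 33 were positive, with a median r of 0.133. Tac1 and Penk had r = 0.828 (exact within-group permutation test, two-sided p = 0.00166, adjusted 0.208, n = 15 mice) and rho = 0.836 (exact permutation p = 0.000591, adjusted 0.0738). Leaving out the 2 mice farthest from the median of Tac1 left r at 0.705 in 13 mice. Within the 3 lanes r was 0.98, 0.719 and 0.993 over 5, 6 and 4 mice. Such r over few mice vary widely, and for Cck with Cort they were 0.891, -0.818 and 0.981. Tac1 and the score of 13 striatal genes had r = 0.808 (exact permutation p = 0.00667, adjusted 0.266, n = 15) and rho = 0.832 (exact permutation p = 0.00479, adjusted 0.299), with r at 0.713 without the 2 farthest mice. Without young/AL replicate 3, 2 relations passed 0.05 for rho alone, Tac1 with Penk and Penk with the striatal score (adjusted p = 0.0482 each, exact permutation, n = 14). Tac1 and Penk are made by the 2 kinds of striatal projection neuron.

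**Figure D4:**
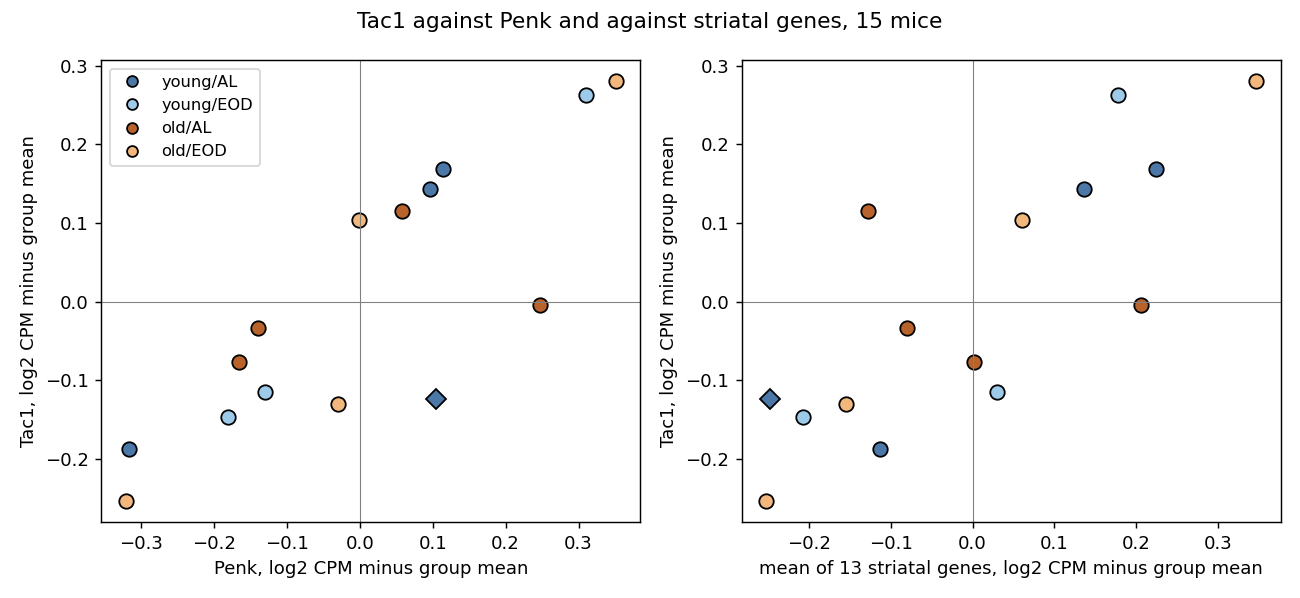
Deviation of Tac1 from its group mean (log2 CPM) in each mouse, against the deviation of Penk and against that of the striatal gene score, with 1 point per mouse, where the diamond is young/AL replicate 3. Mice high in Tac1 were high in Penk (r = 0.828, n = 15, adjusted exact permutation p = 0.208).

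The genes most like 9 of the 10 across 14 mice (Pearson's r of log2 CPM, leaving out young/AL replicate 3, among 14123 genes whose mean log2 CPM was 1 or more) are given as a description, with no test. Unlike the within-group r above, these r were taken with group means left in, so differences between groups enter them. With so many candidate genes and so few mice, the highest r can also be high by chance. Tac1 had Penk nearest (r = 0.905), followed by Smad7 and Dlx6, a transcription factor of the forming striatum and of interneurons. Penk had Tac1 nearest and then Pde1b (r = 0.895), a phosphodiesterase of striatal neurons. Cck lay closest to Cyp46a1 (0.96), a neuronal cholesterol hydroxylase, Sst to Psd (0.925) and Adcyap1 to Chic2 (0.892). Nts had Uck2 (0.878) and Chat (0.849), the enzyme that makes acetylcholine. Pdyn had Myo1f (0.839) and Cx3cr1 (0.836), a microglial receptor. Mean levels of Pdyn and of Cx3cr1 were both higher in the old groups than in the young groups. Whether Pdyn and Cx3cr1 vary together apart from age was not tested. Tac2 and Cort, at low counts, had Fkbp9 (0.879) and Ccdc87 (0.925). Over all 15 mice Penk was no longer among the 3 nearest to Tac1, which were Smad7 (0.861), the dopamine receptor Drd1 (0.846) and Ulk4, whereas Penk had the striatal genes Pde1b (0.898) and Ppp1r1b (0.836) nearest.

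The genes that receive, cut, store and degrade these peptides were read from lists written for this set. None of the 18 receptors, 11 processing enzymes, 10 granule proteins, 11 peptidases, 17 interneuron genes and 13 striatal genes tested passed FDR 0.1 in any comparison over 15 mice. Among receptors, the highest levels per length were those of the sorting receptor Sort1 (91.0 ± 5.21 CPM per kilobase), which binds neurotensin, and of the PACAP receptor Adcyap1r1 (39.1 ± 3.59). Carboxypeptidase E (Cpe, 1240 ± 63.8) and the chaperone Scg5 (152 ± 11.8) led the processing enzymes, and Scg2 (247 ± 15.8) and Chgb (178 ± 15.2) the granule proteins. Lnpep (17.7 ± 3.16) and Prep (10.3 ± 0.817) led the peptidases, and Pde1b (93.9 ± 10.4) and Ppp1r1b (67.1 ± 12.6) the striatal genes. Of the interneuron genes, Gad1, which makes GABA, stood at 83.2 ± 9.27.

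Striatal genes were the list that sat lowest under EOD. Averaged over ages, 12 of 13 had a log2 difference below 0 (median -0.223, against 0.000373 over all genes). Of the 13, 7 had an unadjusted p under 0.05 in edgeR, against 4.51% of all genes, and none passed FDR 0.1. Genes of 1 region measured in the same mice can vary together. The 7 are therefore not independent results, and their number gives no test of the list. The medians were -0.22 in young and -0.197 in old mice. Without young/AL replicate 3 the median was -0.33 in young mice and -0.269 averaged over ages. Of the 7, named after their values were seen, the adenosine receptor Adora2a had a log2 difference of -0.46, the signalling protein Ppp1r1b -0.34, and the dopamine receptors Drd2 and Drd1 -0.31 and -0.25 (edgeR FDR 0.983 for each). In the same comparison the striatal peptides Penk, Pdyn and Tac1 had log2 differences of -0.20 (SE 0.098), -0.14 (SE 0.0916) and -0.11 (SE 0.0868), also with FDR 0.983 in edgeR. Of the other companion genes, also named after their values were seen, the cholecystokinin receptor Cckbr had a log2 difference of -0.47 for EOD in young mice (unadjusted p = 0.00548 and FDR 0.996 in edgeR). Its group means were 35.7 ± 5.89 CPM (n = 4) in young/AL and 25.9 ± 2.13 CPM (n = 3) in young/EOD mice. The highest Cckbr value over all mice, 42.8 CPM, was that of young/AL replicate 3, and the difference without that mouse is not given here.

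Parvalbumin (Pvalb), the calcium-binding protein of fast-spiking interneurons and no neuropeptide, is named after its values were seen, because it passed the threshold without young/AL replicate 3. With age in AL mice its log2 difference was 0.42 (SE 0.1, edgeR FDR 0.0538) without young/AL replicate 3 and 0.29 (FDR 0.362) with it, and averaged over diets it was 0.34 (SE 0.071, FDR 0.0117) without and 0.28 (FDR 0.114) with that mouse. The call therefore rests on leaving out 1 library. Sst and Vip, the peptides of neighbouring interneuron classes, had log2 differences of 0.07 and -0.15 with age in AL mice, and of -0.018 and -0.11 without young/AL replicate 3. Leaving out other single mice gave Vip values from -0.32 (without old/AL replicate 4) to -0.063 (without young/AL replicate 2).

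**Figure D5:**
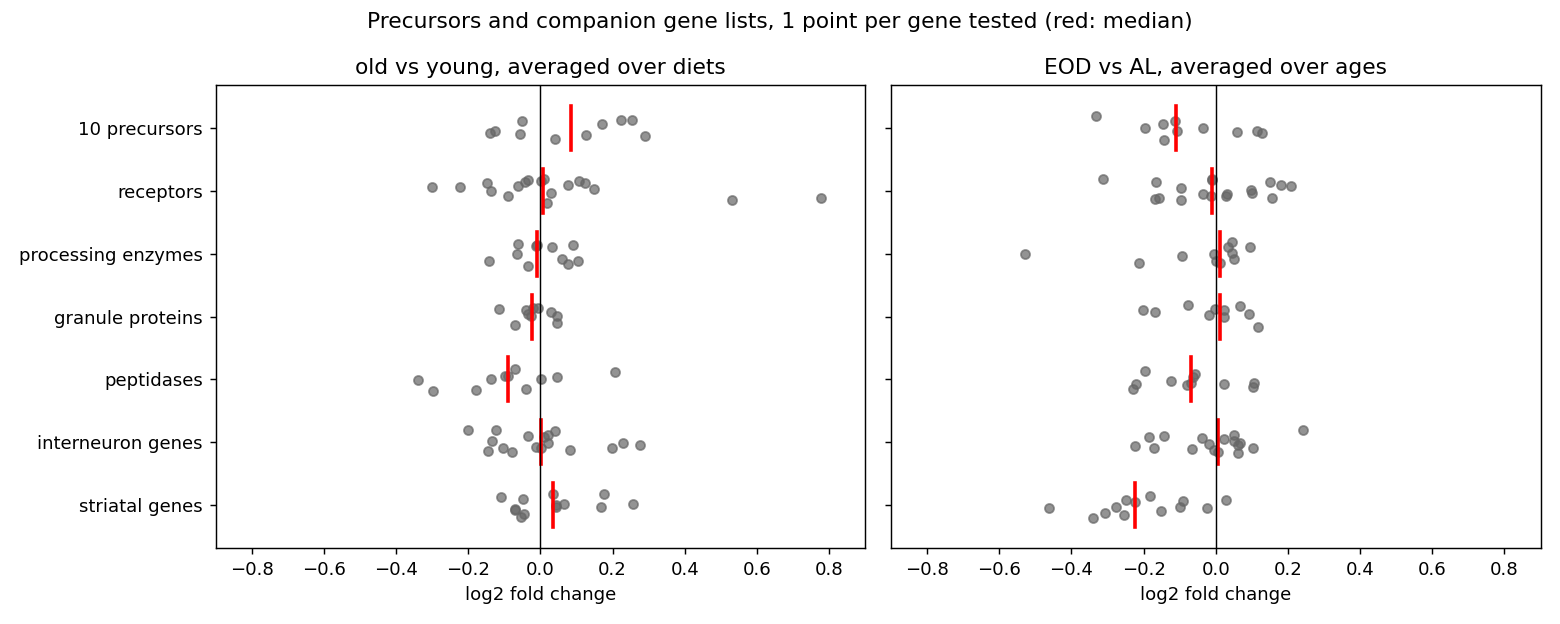
Log2 fold change of every gene of the 10 peptides and of the companion lists for age averaged over diets and for EOD averaged over ages (edgeR, 15 mice), with the median of each list in red. Striatal genes lie mostly below 0 under EOD, and no gene shown passes FDR 0.1.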

How the data were processed

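RNA of 15 mice was sequenced by the authors (50 bp single-end reads). Reads were trimmed, aligned with STAR to Ensembl GRCm38 and assigned by featureCounts 1.5.0-p1 to the genes of Ensembl release 79 (stranded, primary alignments, minimum mapping quality 5), and the deposited values are raw counts per gene, without normalization. The quasi-likelihood test of edgeR 4.0.16 was run under R 4.3.3 (TMM, filterByExpr, 1 fit of 4 group means, Benjamini-Hochberg adjustment over 15864 genes). The study's methods name DESeq2, which was run as an alternative (version 1.42.0), as was limma 3.58.1 voom with sample quality weights. CPM is the count scaled to the TMM-adjusted library total. For correlations, CPM was put on a log2 scale after adding a prior count of 2. The other alternatives were 2 filters on low counts, RLE size factors, an FDR of 0.05, replicate number as a block, lane as a covariate, fewer groups or an additive model, and leaving out each mouse. The rule for naming companion genes was those past FDR 0.1 and the 2 of each list highest per length, and the others named (Adora2a, Drd1, Drd2, Cckbr and Pvalb) were chosen after their values were seen. Some genes that this rule or the ranking of nearest genes selects are not reported here. Nothing in the labels says whether mice came from separate cages or litters, so p-values measure the spread between these mice. No pair of libraries in 1 group agreed within sampling noise (21 pairs). The steps were tested on simulated data. The 10 genes and the lists were chosen with earlier results of these data known. Counts were lowest for Cort (5 to 28 per mouse).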

Additional observations from a re-analysis of the deposited data

Results flagged for a closer look

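In 30 groups of 4 mice (the 3 groups of 4 for each of the 10 genes), 4 had a mouse far from the others by Dixon's criterion at the 95% level (critical value 0.829), and chance flags about 1 in 20 groups. The values were not weighed further. Vip in old/AL replicate 4, the mouse with pituitary transcripts, was 57.91 CPM, against 38.97 to 39.04 CPM in the other 3 old/AL mice (gap over range 0.996). Penk in young/AL replicate 1 was 187.2 CPM, against 249.3 to 252.3 CPM in the other 3 young/AL mice (0.954). Adcyap1 was 22.88 CPM in old/AL replicate 1, against 26.11 to 26.67 CPM in the other 3, and 33.79 CPM in old/EOD replicate 3, against 25.29 to 26.55 CPM in the other 3 (0.852 for each).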

How the results depend on the processing

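Of 167 alternative counts of the 10 genes past the threshold, 165 were 0 as in the main result, including every count that left out 1 mouse (0 to 0 in all 7 comparisons), and the other 2 came from keeping every gene with at least 1 count, which gave 1 for age averaged over diets (Pdyn, log2 difference 0.26, FDR 0.0493) and 1 for EOD in young mice (Penk, -0.40, FDR 0.0169). Under that filter a gene's own spread had little weight (prior degrees of freedom 2170 against 9.81). It called 653 genes for age averaged over diets against 365, and 26 for EOD in young mice against 0. With replicate number as a block, 0 of the 10 passed in each of the 7 comparisons. Same-numbered mice did not deviate together (mean correlation -0.0266 over 21 pairs), so that the numbers were not read as pairs.

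Of 1663 alternative log2 differences of single genes, 1574 kept their direction and side of the threshold, and 87 turned sign, none from a main size above 0.1719. Apart from leaving out mice, 10 turned sign: age in EOD mice, Vip with lane as a covariate (-0.037) and Cck with voom (0.029); EOD in young mice, Vip with voom (0.036) and lane (0.011), Cort with voom (0.15) and with replicate number as a block (0.0048); EOD in old mice, Sst with the block (0.0080) and Penk with 10 counts in every mouse (-0.0020); EOD averaged, Cort with voom (0.023); and the interaction of Cort with lane (0.081). Leaving out 1 mouse turned 24 results. For age in AL mice the ranges were -0.031 to 0.20 (Sst), -0.19 to 0.025 (Cck) and -0.0061 to 0.11 (Tac1). For age in EOD mice they were -0.033 to 0.13 (Vip), -0.044 to 0.055 (Cck), -0.14 to 0.54 (Tac2) and -0.066 to 0.18 (Nts), and averaged over diets -0.10 to 0.0098 (Cck) and -0.025 to 0.13 (Penk). For EOD in young mice they were -0.14 to 0.052 (Vip), -0.20 to 0.37 (Tac2) and -0.19 to 0.15 (Cort). For EOD in old mice they were -0.12 to 0.097 (Sst), -0.12 to 0.057 (Tac1), -0.25 to 0.27 (Tac2), -0.13 to 0.10 (Penk), -0.19 to 0.061 (Pdyn) and -0.24 to 0.11 (Cort), and averaged over ages -0.072 to 0.22 (Tac2) and -0.13 to 0.054 (Cort). For the interaction they were -0.031 to 0.19 (Cck), -0.42 to 0.26 (Tac2), -0.21 to 0.15 (Cort) and -0.12 to 0.043 (Adcyap1). The cause was not tested. The genes nearest to each of the 10 also changed with the choice of mice.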
